A study of Mus musculus with 6 samples.

Results

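The microRNAs of muscle and heart were read from 6 of the 334 mouse microRNA probes listed in the files: the probes for miR-1, miR-206, miR-133b, miR-133a*, miR-208 and miR-499. They were chosen by name and not by signal, as every mouse microRNA probe whose description names mmu-miR-1, mmu-miR-133a, mmu-miR-133b, mmu-miR-206, mmu-miR-208 or mmu-miR-499 with any arm ending. Of the 6 names, 5 had a probe for the mature form of that name. miR-133a was represented by the star strand only, and its mature form was not analysed here. All 6 probes passed the filter on dim probes, which left 40 of the 334 untested.

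The samples were embryoid bodies, clumps of mouse embryonic stem cells left to differentiate in suspension, collected on day 7 from cells of strain 129S7/SvEv Brd-Hprt b-m2. They carried human BRCA1, a DNA repair and tumour suppressor gene, with the missense change R1699Q (RQ, 2 arrays), with M1652I (MI, 2 arrays) or in its wild-type form (WT, 2 arrays). The state of the mouse's own Brca1 gene and the number of independent cell clones are not given in the sources used here. On every array Cy3 carried the RNA of the group and Cy5 carried RNA labelled as wild-type embryoid bodies, and no array had the dyes swapped. The replicates are labelled biological, but nothing says that they came from separate cultures, so p-values measure the spread between these arrays, which may be technical. In bulk embryoid bodies, fewer cells of a type and less of a microRNA per cell cannot be told apart.

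MicroRNAs are short RNAs that guide Argonaute proteins to messenger RNAs, mainly through the seed, bases 2 to 8 from the 5′ end, and lower the output of the messages they pair with. miR-1, miR-206 and the miR-133 microRNAs are made in striated muscle cells under the control of factors such as MyoD, myogenin, SRF and MEF2. miR-1 and miR-206 promote muscle cell differentiation, while miR-133 is known for keeping myoblasts dividing through its target SRF. miR-208a, miR-208b and miR-499 are encoded inside myosin heavy chain genes and take part in setting the balance of fast and slow myosins in heart and muscle. Embryoid bodies can form patches of beating heart muscle cells as they differentiate, so those of these microRNAs made in heart muscle are commonly used to follow that lineage.

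The mature sequences below show the seeds, and the positions after them show how the miR-206 and miR-133b genes lie together. Capitals mark the seed, sequences run 5′ to 3′, and sequences and positions are those of RefSeq on GRCm38.p6. Of the 6 probes, those for miR-1 and miR-133a* were not compared with RefSeq sequences and are named only. Among the others, 3 matched a RefSeq mature sequence over its whole length: miR-206, miR-499 and miR-208, the last with miR-208a-3p. The miR-133b probe matched bases 2 to 22 of its own.
miR-206-3p: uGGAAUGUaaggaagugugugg
miR-133b-3p: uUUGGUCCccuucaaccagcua
miR-208a-3p: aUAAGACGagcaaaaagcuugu
miR-208b-3p: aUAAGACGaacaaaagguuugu
miR-499-5p: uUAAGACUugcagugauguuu

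miR-206-3p lies at chr1:20679055-20679076 and miR-133b-3p at chr1:20682834-20682855, both on the plus strand and inside the long noncoding RNA gene Lincmd1, with 3686 bases between the hairpins. miR-208a-3p lies at chr14:54949072-54949093 on the minus strand inside Myh6, the gene of the alpha cardiac myosin heavy chain. miR-208b-3p, for which the array design listed here has no probe, lies at chr14:54975710-54975731 on the minus strand inside Myh7, the gene of the slow, beta myosin heavy chain. miR-499-5p lies at chr2:155622893-155622913 on the plus strand inside Myh7b, a related myosin gene. Of the hairpins of the miR-1 and miR-133a pair, the copies on chromosome 2 lie 9254 bases apart inside Mir1a-1hg.

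The miR-208a and miR-208b sequences differ at 3 of 22 positions and have the same seed. miR-499 and miR-208a share bases 2 to 7 but not base 8, and differ at 9 of their first 21 positions. The probes for miR-1 and miR-206 target sequences with the same seed that differ at 3 of 21 positions, so hybridisation of either microRNA to the other's probe cannot be told apart from its own signal. Both probes that carried the clearest group differences are shown in full. Capitals mark the complement of the microRNA and lower case the rest of the probe, which includes the shared stem.
miR-206 probe: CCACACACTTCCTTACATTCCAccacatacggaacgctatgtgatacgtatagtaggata
miR-499 probe: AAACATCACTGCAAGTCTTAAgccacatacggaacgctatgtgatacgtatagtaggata

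Across the arrays, 241 to 255 of the 334 probes were well above background in Cy3 and 262 to 271 in Cy5. Replicate arrays correlated across probes at r = 0.994 in RQ, 0.993 in MI and 0.987 in WT. The negative control spots had a higher net Cy3 signal, which is the signal after subtraction of the local background, on the RQ arrays (93.0 and 103) than on the MI arrays (43.8 and 59.4) and the WT arrays (59.4 and 43.8). Of 12 pluripotent stem cell microRNAs sought, 7 had a listed probe. Summed over these, the net signal was 45579 to 81813 in Cy3 but 139 to 224 in Cy5, although the Cy5 RNA is also labelled as embryoid bodies. The slide held the RQ and MI arrays in a different row from the WT arrays, so slide row and mutation cannot be told apart.

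The 6 probes fell into 3 patterns of signal. miR-1, miR-133b and miR-133a* were far brighter in the Cy5 reference than in the RNA of any group. miR-206 was the reverse, with more signal in Cy3 than in Cy5 in every group. miR-499 and miR-208 were dim in both channels. Signals of different probes are not compared as amounts, because each probe has its own brightness per molecule.

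**Figure D1:**
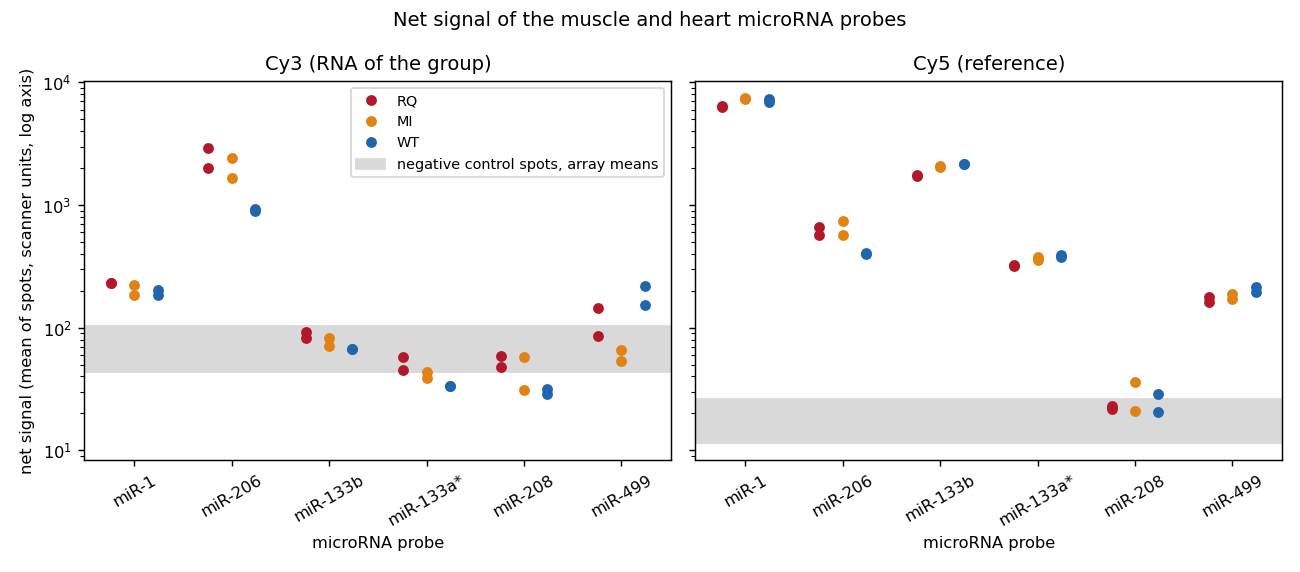
Net signal (scanner units, log axis) of the 6 muscle and heart microRNA probes in Cy3, left, and Cy5, right, with 1 point per array for RQ, MI and WT; the grey band spans the array means of the negative control spots. In Cy3, miR-133b, miR-133a* and miR-208 lie in or below the band on all 6 arrays, while miR-206 lies far above it.

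miR-1, among the most abundant microRNAs of adult heart and skeletal muscle, had a net Cy3 signal of 229.5 and 231.5 on the RQ arrays, 184 and 224 on the MI arrays and 201 and 183.5 on the WT arrays. Its net Cy5 signal was 6336 and 6429 on the RQ arrays, 7273.5 and 7427.5 on the MI arrays and 7370.5 and 6936 on the WT arrays. The Cy3 signal was thus above background on all 6 arrays but small beside that of the reference. After normalisation the mean Cy5 signal was 27.4-fold the Cy3 signal in RQ, 16.3-fold in MI and 13.4-fold in WT. The size and group order of these folds depend on the normalisation, as given below.

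miR-133b, which is transcribed with miR-206, had a net Cy3 signal of 82.0 and 91.5 in RQ, 70.3 and 83.0 in MI and 67.3 and 66.5 in WT. Its net Cy5 signal was 1764 and 1724 in RQ, 2036 and 2079 in MI and 2152 and 2165 in WT. The Cy3 values lay within the span of the negative control means over all arrays. Against the control mean of the same array they lay below it in RQ and above it in MI and WT. The probe was well above background in Cy3 on 0 of 2 RQ arrays, 2 of 2 MI arrays and 2 of 2 WT arrays. The net Cy3 signal was highest in RQ, where the negative control spots were also highest. miR-133a*, the passenger strand of miR-133a, stayed at background in Cy3 on every array, at 45.1 and 57.5 in RQ, 38.6 and 43.3 in MI and 33.6 and 33.4 in WT. In Cy5 it reached 325 and 316 in RQ, 357 and 376.5 in MI and 393 and 377 in WT, well above background on all 6 arrays.

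miR-206, a microRNA of skeletal muscle, had a net Cy3 signal of 2934 and 2017 in RQ, 1664 and 2437 in MI and 892 and 930 in WT. Its net Cy5 signal was 657 and 568 in RQ, 570.5 and 742 in MI and 398 and 404 in WT. Both signals were higher on every RQ and MI array than on either WT array. After normalisation the Cy3 signal was 3.56-fold the Cy5 signal in RQ, 5.87-fold in MI and 2.09-fold in WT. miR-206 and miR-133b, neighbours in Lincmd1, therefore lay on opposite sides of the reference in all 3 groups.

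miR-499 had a net Cy3 signal of 85.7 and 143.25 in RQ, 53.5 and 65.7 in MI and 217.5 and 154 in WT, and a net Cy5 signal of 161 and 179 in RQ, 187 and 170 in MI and 214.25 and 193.7 in WT. By the scanner software's spot flags it was well above background in Cy3 on both RQ and both WT arrays and on neither MI array. Its RQ signals were near those of the negative control spots, though, which read 93.0 and 103 on these arrays. miR-208, the heart muscle microRNA of Myh6, stayed at background in Cy3 on every array, with 47.3 and 59.0 in RQ, 31.3 and 57.2 in MI and 31.5 and 28.5 in WT. In Cy5 it was at 20.5 to 36.3, and well above background on 2 RQ arrays, 1 MI array and 0 WT arrays. Its signal gives no level to compare between groups.

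In the WT arrays, where both channels carry the same label, the mean log2 ratio of Cy3 over Cy5 was -3.75 ± 0.53 for miR-1, -4.50 ± 0.25 for miR-133b and -3.02 ± 0.21 for miR-133a* (SD, n = 2). It was 1.06 ± 0.72 for miR-206, -0.34 ± 0.07 for miR-208 and -0.55 ± 0.06 for miR-499 (SD, n = 2). Ranked from the lowest WT ratio among all tested probes, miR-133b stood at 3 and miR-1 at 11, while miR-206 stood at 217. The ratios of miR-133a* and miR-208 rest on Cy3 signals at background, so their exact size depends on the background correction and the offset. Other WT ratios also moved with the processing. With median centring, miR-1 was at -5.20, miR-133b at -4.65 and miR-206 at 0.55. With the scanner software's processed signals they were at -5.87, -6.87 and 0.11. The ranks are those of the reported fit. With no dye swap, dye and RNA source cannot be told apart in these ratios.

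**Figure D2:**
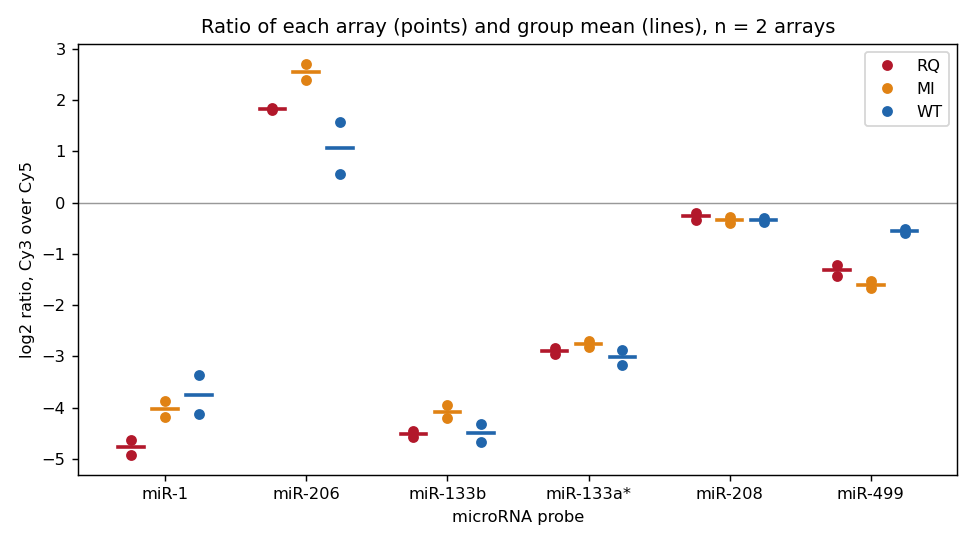
Log2 ratio of Cy3 over Cy5 after normalisation for the 6 probes; points are arrays and lines are the means of 2 arrays in RQ, MI and WT. The miR-499 ratio is lower on every RQ and MI array than on either WT array, and the miR-206 points of WT lie further apart than those of RQ or MI.

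Group differences were then tested on these ratios with limma over all tested probes and all 6 arrays, with Benjamini-Hochberg adjustment and calls at an adjusted p under 0.05. In RQ minus WT, 2 of the 6 probes were called lower, miR-1 and miR-499, and 0 higher. In that comparison 21.4% of all tested probes were called, 13.9% lower and 7.48% higher. In MI minus WT, miR-499 was called lower and miR-206 higher, where 15.6% of all tested probes were called, 6.46% lower and 9.18% higher. In RQ minus MI, limma called 0 of the 6, against 10.9% of all tested probes (7.82% lower and 3.06% higher), and 2 of the 6 had an unadjusted p under 0.05 (miR-1 and miR-133b), as did 26.5% of all tested probes. The median log2 difference of the 6 was 0.03 in RQ minus WT, 0.13 in MI minus WT and -0.28 in RQ minus MI, beside 0.03, 0.11 and -0.10 over all tested probes. As a group, therefore, the 6 probes had no common direction, and the differences rested on single microRNAs. The RQ and MI comparisons share the WT arrays.

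**Figure D3:**
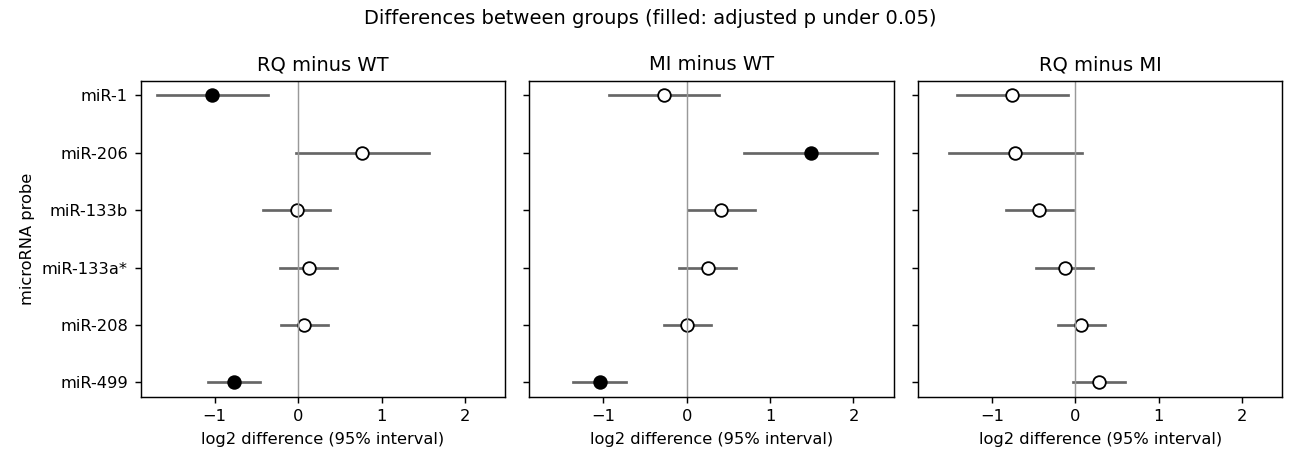
Log2 differences between groups for the 6 probes with 95% confidence intervals from limma; filled circles have an adjusted p under 0.05. miR-499 is called lower in both comparisons with WT, miR-206 higher in MI and miR-1 lower in RQ.

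miR-499 was lower in both mutants. Its log2 ratio was -1.43 and -1.21 on the RQ arrays, -1.68 and -1.52 on the MI arrays and -0.51 and -0.59 on the WT arrays. All 4 mutant arrays lay below both WT arrays. The ratio fell by 0.77 ± 0.13 on the log2 scale in RQ against WT (SE, 95% interval -1.08 to -0.45, adjusted p = 0.0112), a 1.70-fold lower ratio. In MI against WT it fell by 1.05 ± 0.13 (SE, 95% interval -1.36 to -0.73, adjusted p = 0.00599), a 2.06-fold lower ratio. RQ and MI differed by 0.28 ± 0.13 (SE, 95% interval -0.03 to 0.59, adjusted p = 0.223), so a difference between the mutants did not pass the test. The deposited value table gave 1.74 for this comparison (adjusted p = 0.00591), with MI at background, and the scanner software's processed signals gave 1.26 (adjusted p = 0.0921).

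The size of the miR-499 difference is less certain than its direction, because the MI signal was at background and the RQ signal near the negative control spots. Tested on the Cy3 channel alone, the log2 difference was -1.20 in RQ minus WT (adjusted p = 0.0101) and -1.20 in MI minus WT (adjusted p = 0.0172). For MI this was a 2.30-fold lower Cy3 signal than in WT, with a limma confidence interval of -1.61 to -0.79 on the log2 scale. The 2.30-fold value is an estimate and not a lower limit. Neither MI array had a Cy3 signal well above background, so the size of the MI difference is uncertain. The MI difference was computed after normalisation within and between arrays and is open to dye bias. Values from the scanner software's processed signals gave -2.45 for RQ minus WT (adjusted p = 0.00821) and -3.71 for MI minus WT (adjusted p = 0.00285). Without the first RQ replicate the RQ difference was -0.66 with adjusted p = 0.0836, and without the first MI replicate the MI difference was -0.97 with adjusted p = 0.0601. Of the 20 settings tried, these were the exceptions, and the other 19 gave a call in each comparison. The settings were not all independent, since changing only the filter, the replicate block or the arrays of the third group left the difference itself unchanged.

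The 4 spots of the miR-499 probe were even on the MI arrays, with net Cy3 signals of 46 to 75, and on the WT arrays, where all lay above the brightest MI spot and reached 262. On the RQ arrays, 1 spot position was brighter than the other 3. It read 414 on the first RQ array, where the scanner software marked it as an outlier and it was left out, against 74 to 92 at the other positions. On the second RQ array the same position read 257, was not marked and was kept, against 90 to 135. Without the bright spots the RQ signals lay below all WT spots. With outlier spots kept, the RQ minus WT difference was -0.59 (adjusted p = 0.0185).

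miR-206 was higher in MI. Its log2 ratio was 1.82 and 1.85 on the RQ arrays, 2.39 and 2.71 on the MI arrays and 0.55 and 1.58 on the WT arrays. Both mutants lay above both WT arrays, and the WT arrays lay further apart than the replicates of RQ or MI. The ratio rose by 1.49 ± 0.33 on the log2 scale in MI against WT (SE, 95% interval 0.69 to 2.29, adjusted p = 0.0340), a 2.81-fold higher ratio. In RQ minus WT the difference was 0.77 ± 0.33 (SE, 95% interval -0.03 to 1.56, adjusted p = 0.142), which did not pass the test. RQ minus MI was -0.72 ± 0.33 (SE, 95% interval -1.52 to 0.08, adjusted p = 0.220), so MI and RQ were not shown to differ.

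On the first WT array the 4 spots of the miR-206 probe disagreed. In order of array row they read net Cy3 signals of 51, 298, 1174 and 2044 and net Cy5 signals of 127, 224, 476 and 764. Their log2 ratios were -1.32, -0.23, 1.55 and 2.21, so the spot in the first of these rows lay below the reference and that in the last lay as far above it as the mutant arrays. The spread of these 4 spots in Cy3, an SD of 2.05 on the log2 scale, was the largest of all tested probes on that array, where the median SD was 0.156. Between the last and the first row of a probe's spots, the Cy3 signal differed by 4.60 on the log2 scale for miR-206, against a median of 0.06 over all tested probes on that array. No spot of the 4 was marked as an outlier, and none was left out.

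On the other arrays the miR-206 spots read alike. Their net Cy3 signals were 2604 to 3263 on the first RQ array and 1896 to 2145 on the second, 1483 to 2027 on the first MI array and 1936 to 2754 on the second, and 844 to 984 on the second WT array. Every spot of the RQ and MI arrays was thus brighter than every spot of the second WT array.

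**Figure D4:**
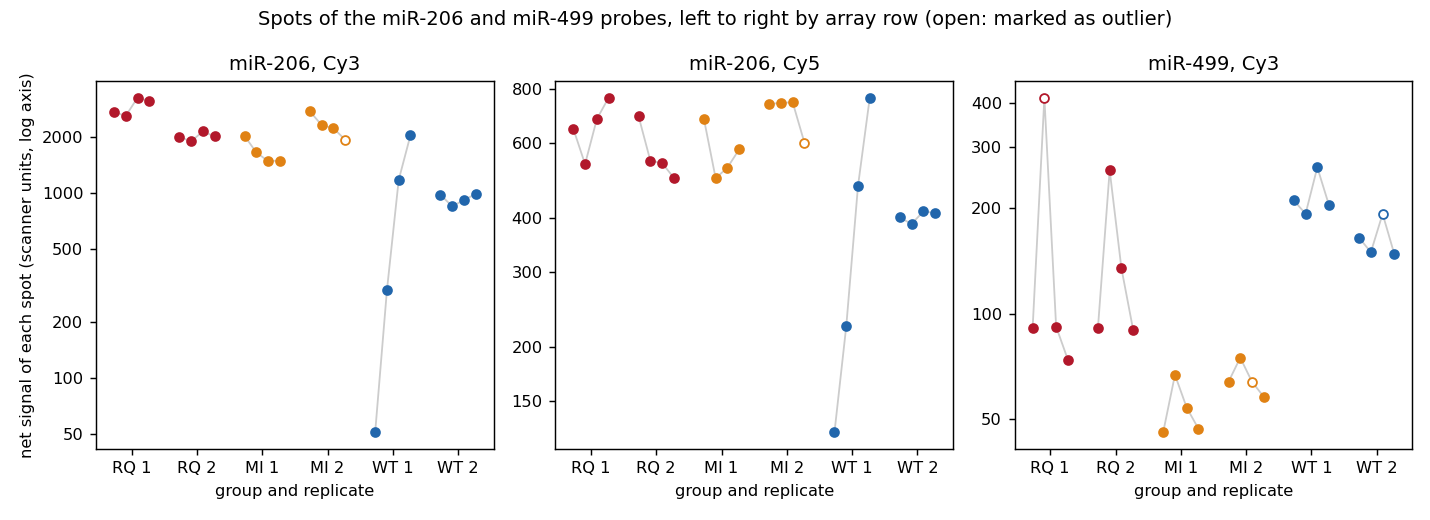
Net signal (scanner units, log axis) of each of the 4 spots of the miR-206 probe in Cy3 and Cy5 and of the miR-499 probe in Cy3, by group and replicate, ordered from left to right by array row; open circles were marked as outliers by the scanner software. The miR-206 spots of the first WT array run from 51 to 2044 in Cy3, and 1 miR-499 spot position stands above the other 3 on both RQ arrays.

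With either WT array left out, the remaining one is assumed to vary like the arrays of the other groups. Without the first WT array, the miR-206 difference was 0.98 in MI minus WT (adjusted p = 0.0302) and 0.26 in RQ minus WT (adjusted p = 0.372). Without the second WT array it was 2.00 in MI minus WT (adjusted p = 0.00459) and 1.28 in RQ minus WT (adjusted p = 0.0231). With the median of the 4 spots in place of their mean, a setting chosen after seeing the data, the difference was 1.37 in MI minus WT (adjusted p = 0.0322) and 0.73 in RQ minus WT (adjusted p = 0.131). The MI difference was above 0 under all 20 settings, between 0.81 and 2.00, but was called under 10 of them, with adjusted p from 0.00300 to 0.201. It was not called without the first MI array (adjusted p = 0.135), without the second MI array (adjusted p = 0.131) or without either RQ array (adjusted p = 0.0703). Under median centring the RQ difference was called too, at 0.87 (adjusted p = 0.0387). The settings were not all independent: those that changed only the filter, the replicate block or the RQ arrays could not move the MI difference from 1.49. Leaving out either RQ array gave the same fit as comparing the 2 groups alone.

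The Cy3 channel alone gave miR-206 a difference of 1.92 in MI minus WT (adjusted p = 0.0487) and of 1.47 in RQ minus WT (adjusted p = 0.0581). The reference channel moved as well: Cy5 alone differed by 0.71 in RQ minus WT (adjusted p = 0.0224) and by 0.43 in MI minus WT (adjusted p = 0.176). The ratio in RQ is therefore smaller than the Cy3 difference. The net Cy3 signals of miR-143, miR-145, miR-199a and miR-214, listed as markers of smooth muscle and mesenchyme, also had a higher net sum in the mutants, with 3263 to 3708 in RQ, 2068 to 2995 in MI and 1408 to 1963 in WT. All 4 markers were well above background on every array. By the normalised ratio, however, miR-145 was called lower in RQ than in WT (-0.68). In that comparison miR-143 (0.33), miR-214 (0.13) and miR-199a (0.01, adjusted p = 0.944) were not called. In MI minus WT, miR-214 was called higher (0.72, adjusted p = 0.0137), while miR-143 (0.72), miR-145 (0.29) and miR-199a (0.24) were not called. Net Cy3 sums of the neural markers were 1938 to 2073 in RQ, 1072 to 1309 in MI and 1093 to 1168 in WT. Those of the endoderm and liver markers were 1391 to 1584 in RQ, 525 to 995 in MI and 493 to 510 in WT. Blood markers summed to 1386 to 1432 in RQ, 1041 to 1172.5 in MI and 1133 to 1174 in WT. Stem cell markers summed to 61962 to 64737 in RQ, 45579 to 58738 in MI and 46098 to 81813 in WT. In the neural, blood and stem cell sums, MI overlapped with WT. The negative control spots and the median of all tested probes were also brighter in net Cy3 in RQ, as given above. The part of these signals in the miR-206 result was not tested.

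miR-1 was lower in RQ by the ratio, while its net Cy3 signal before normalisation was not lower, with negative control spots also brighter in RQ. Its log2 ratio was -4.93 and -4.63 on the RQ arrays, -4.18 and -3.86 on the MI arrays and -4.13 and -3.37 on the WT arrays. Both RQ arrays lay below both WT arrays, while the MI arrays overlapped with WT. The ratio fell by 1.03 ± 0.27 on the log2 scale in RQ against WT (SE, 95% interval -1.69 to -0.36, adjusted p = 0.0471), and MI minus WT was -0.27 ± 0.27 (SE, 95% interval -0.94 to 0.39, adjusted p = 0.485). RQ minus MI was -0.75 ± 0.27 (SE, 95% interval -1.42 to -0.09, adjusted p = 0.140).

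The miR-1 difference depended on the normalisation. The net Cy3 signals given above were higher in RQ than in WT, and the net Cy5 signals lower. The negative control spots were also brighter in Cy3 on the RQ arrays (93.0 and 103) than on the WT arrays (59.4 and 43.8). The median net Cy3 signal of all tested probes was higher in RQ too, as given above. The part of either in the net Cy3 signals of miR-1 was not tested. With arrays centred on their median in place of the loess curve, RQ minus WT for miR-1 was 0.023 (adjusted p = 0.906). With a loess curve fitted on bright probes it was -1.18 (adjusted p = 0.00122). Cy3 alone, taken after loess, gave -0.65 (adjusted p = 0.0849), with both RQ arrays below both WT arrays. The settings were not all independent, as given for miR-206. The difference was called under 8 of 20 settings. It was not called without either RQ array (adjusted p = 0.235 and 0.101), without the second WT array (-0.65, adjusted p = 0.0861) or without either MI array (adjusted p = 0.0765).

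miR-133b, miR-133a* and miR-208 were called in none of the 3 comparisons. The log2 ratio of miR-133b was -4.58 and -4.45 in RQ, -3.96 and -4.21 in MI and -4.67 and -4.32 in WT. Its difference was -0.02 ± 0.16 in RQ minus WT (SE, 95% interval -0.42 to 0.39, adjusted p = 0.944) and 0.42 ± 0.16 in MI minus WT (SE, 95% interval 0.01 to 0.82, adjusted p = 0.128). RQ overlapped with WT, and both MI arrays lay above both WT arrays. The log2 ratio of miR-133a* was -2.95 and -2.83 in RQ, -2.71 and -2.82 in MI and -3.17 and -2.87 in WT, with differences of 0.13 in RQ minus WT (95% interval -0.21 to 0.47) and 0.25 in MI minus WT (95% interval -0.09 to 0.59). For miR-208 the ratio was -0.33 and -0.20 in RQ, -0.39 and -0.28 in MI and -0.39 and -0.30 in WT. All 3 groups overlapped for miR-208, and the interval of each difference lay within 0.36 of 0, but the probe was at background, where a ratio is drawn towards 0 by the offset of 50.

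From the processed signals of the scanner software, miR-133b was called lower in RQ minus WT at -0.82 (adjusted p = 0.0400) and miR-133a* higher at 0.79 (adjusted p = 0.0255). Both had a Cy3 signal at background on the 2 RQ arrays. For miR-133b, Cy3 alone after normalisation differed by -0.37 in RQ minus WT (95% interval -0.77 to 0.04, adjusted p = 0.139), while the net Cy3 signal before normalisation was higher in RQ.

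**Figure D5:**
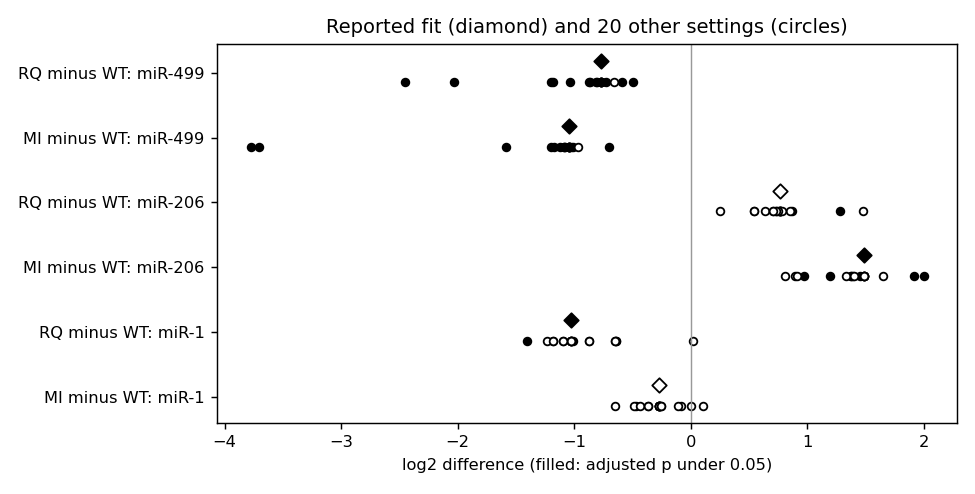
Log2 differences of miR-499, miR-206 and miR-1 in RQ minus WT and MI minus WT in the reported fit (diamonds) and under 20 other settings (circles); filled symbols have an adjusted p under 0.05. miR-499 stays below 0 and miR-206 above 0 in every setting shown, and the miR-1 difference in RQ reaches 0.023 under median centring.

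The Cy5 reference was not constant for these probes, although its label is the same on every array. Tested on Cy5 alone, 5 of the 6 probes differed in RQ minus WT, where 43.5% of all tested probes were called, 34.7% lower and 8.84% higher. miR-133b (-0.35, adjusted p = 0.0205), miR-133a* (-0.45, adjusted p = 0.00799) and miR-499 (-0.43, adjusted p = 0.0238) were lower, and miR-206 (0.71, adjusted p = 0.0224) and miR-1 (0.38, adjusted p = 0.0160) were higher. For miR-1 the direction turned without normalisation between arrays, at -0.16 (adjusted p = 0.0457), and the miR-499 call was lost, at -0.20 (adjusted p = 0.0518). The loess step splits its correction between both channels, so these Cy5 values also hold part of the Cy3 signal. In MI minus WT none of the 6 was called on Cy5 alone, and 0.34% of all tested probes were.

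Microarray probes for 28 further microRNAs with a described part in muscle cell differentiation, muscle growth or the failing heart were read beside the 6. This list was chosen with earlier results of these data known, so its counts and medians cannot show an enrichment. In RQ minus WT, 3 of the 28 were called higher and 8 lower, beside 7.48% and 13.9% of all tested probes, with a median log2 difference of -0.19 against 0.03 over all tested probes. The 3 higher were miR-155 (1.35), miR-181a (0.62) and miR-181b (0.60), the miR-181 pair being known for promoting myoblast differentiation in mouse. The 8 lower were miR-27b (-1.42), miR-26a (-1.41), miR-125b (-1.39), miR-29a (-1.21), miR-23a (-1.06), miR-30c (-0.92), miR-27a (-0.85) and miR-24 (-0.62). Among them, miR-27 is known to target Pax3 in muscle progenitors, and miR-26a to target Ezh2 during myogenesis.

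In MI minus WT, 3 of the 28 were called higher, miR-181a (1.28), miR-181b (1.06) and miR-214 (0.72), and 2 lower, miR-26a (-1.38) and miR-23a (-0.60). Over all tested probes 9.18% were called higher and 6.46% lower, so both counts are near the background, and the median of 0.11 equals that of all tested probes. In RQ minus MI, miR-155 (1.11) was called higher and miR-27b (-1.19), miR-27a (-0.91), miR-181a (-0.65) and miR-214 (-0.59) lower, beside 3.06% and 7.82% of all tested probes. The median of the 28 was -0.30, against -0.10 over all tested probes. Of the smooth muscle pair, miR-145, which favours the contractile state of vascular smooth muscle, was called lower in RQ minus WT (-0.68 ± 0.18 SE, adjusted p = 0.0472) and in RQ minus MI (-0.97 ± 0.18 SE, adjusted p = 0.0339). Its cluster partner miR-143 was not called in RQ minus WT (0.33, adjusted p = 0.369) or in MI minus WT (0.72, adjusted p = 0.0953).

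The 6 probes did not vary together over the 6 arrays. Across arrays, the log2 ratio of miR-206 correlated with that of miR-133a* at r = 0.88 and of miR-133b at r = 0.77, but with that of miR-499 at r = -0.86 and of miR-1 at r = 0.00. The correlation of miR-133b with miR-133a* was 0.88. These values describe 6 arrays that share slide, reference label and normalisation. The probes with ratios most like miR-499 were miR-200a (r = 0.97), miR-673 (r = 0.96) and miR-532 (r = 0.96), and those most like miR-206 were miR-338 (r = 0.98), miR-686 (r = 0.96) and miR-449b (r = 0.95). For miR-1 they were miR-19b (r = 0.99), miR-125b (r = 0.97) and miR-125a (r = 0.97). For miR-133b they were miR-203 (r = 0.97), miR-29c (r = 0.97) and miR-30a-5p (r = 0.97), and for miR-133a* let-7i (r = 0.97), miR-142-5p (r = 0.97) and miR-449b (r = 0.95). For miR-208 the highest were let-7c (r = 0.82), let-7b (r = 0.71) and miR-542-5p (r = 0.68), and no probe passed 0.9. With 6 arrays, 9 to 17 probes passed r = 0.9 for each of the other 5.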

How the data were processed

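The authors' arrays were scanned and read out, per the file headers, with Agilent Feature Extraction (version 9.5.1.1). The deposited files give mean and median local background intensity of either dye per spot on a linear scale. The deposited value table holds log10 ratios of Cy3 over Cy5, equal to minus the scanner ratio of each spot. Both list 1932 of the 14712 features counted by the scanner software, and the others were not analysed here.

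In limma 3.58.1 under R 4.3.3, intensities were corrected with normexp (offset 50) and loess within arrays, with control, non-mouse and outlier spots at weight 0. Outlier spots were removed (60 to 99 per array) and the 4 spots of a probe averaged as log2 Cy3 over Cy5. Probes entered the test when, on 2 or more arrays, the share of spots well above background exceeded 0.5 in Cy3 or in Cy5. Groups were compared with lmFit and eBayes on all 6 arrays (3 residual and 2.99 prior degrees of freedom), adjusted by Benjamini-Hochberg over all tested probes. Single channels were tested after loess and Aquantile. The number of arrays limits the precision. The fit was tested on simulated data.

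Named beside the 6 probes were the called members of the muscle and smooth muscle lists and, for each probe, the 3 with the highest Pearson r. The members and lists were chosen with earlier results of these data known.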

Additional observations from a re-analysis of the deposited data

How the results depend on the processing

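Of 354 results for single muscle and heart probes under other settings, 316 kept their side of the threshold and, where called, their direction (25 uncalled values changed sign), 23 lost the call, 14 gained it and 1 reversed: miR-1 in RQ minus WT, 0.023 under median centring. Some of these results repeat the same fit, since leaving out an array of the third group equals comparing the 2 groups alone. In Cy5 alone, miR-1 in RQ minus WT turned to -0.16 without normalisation between arrays. The count of the 6 probes called in RQ minus WT (2) was 4 with processed signals and with the value table, and 1 with Cy3 alone, offset 100, outlier spots kept (also only in the loess curve), no filter or 2 groups; leaving out an array gave 0 to 2. In MI minus WT (2) it was 1 with median centring, processed signals, offset 100, 2 groups, the value table or outliers in the loess curve, and 0 to 2 without an array. In RQ minus MI (0) it was 2 with 2 groups, 1 with the value table and 0 to 2 without an array. The WT median of the 6 ratios, -1.79, was -1.67 with median centring and -3.71 with processed signals.

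Over all probes, RQ minus WT (63) fell to 18 with offset 100 and ran from 5 to 60 without an array. MI minus WT (46) was 28 with offset 100, 27 with 2 groups and 6 to 63 without an array. RQ minus MI (32) was 21 with a loess on bright probes, 2 with offset 100, 14 with outlier spots kept, 17 with outliers in the loess curve and 0 to 48 without an array. Cy5 alone gave 0 in MI minus WT (1) without normalisation or with outliers kept, and 2 and 14 in RQ minus MI (5). The cause was not tested. Higher calls made up 34.9% in RQ minus WT and 58.7% in MI minus WT, but 70.1% and 44.7% with median centring, 19.6% and 40% with the bright loess, 20.9% and 41% with Cy3 alone, and 30.6% and 28.1% with processed signals; the median of all probes in RQ minus WT moved from 0.03 to -0.26 with processed signals and -0.19 with Cy3 alone. In RQ minus MI it was 28.1%, but 61.3% with median centring.

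Same-numbered deviations correlated weakly, at 0.041 for RQ and MI, 0.119 for RQ and WT and 0.182 for MI and WT. These values cannot show whether arrays of the same replicate number were prepared together. The replicate block gave 59, 39 and 38 calls in the 3 comparisons, and 1 of the 6 probes in RQ minus MI (miR-1, adjusted p = 0.0378). Dim Cy3 signals limit miR-133b, miR-133a*, miR-208 and, in MI and RQ, miR-499.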
